A study of Mus musculus with 6 samples.

Results

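The mitochondrial ribosomal proteins are described here in BV2 cells treated with lipopolysaccharide (LPS) or with vehicle. Every gene with a protein-coding symbol made of Mrpl or Mrps and a number was taken from the deposited table of estimated counts, with a letter suffix allowed and pseudogenes left out. This gave 78 genes of the 55401 rows, 49 named for the large subunit (Mrpl) and 29 for the small subunit (Mrps). The rule reads names and no measured value. BV2 is a mouse microglial line immortalised with a retrovirus carrying the oncogenes v-raf and v-myc, so it is a single dividing line and not primary microglia. LPS, a bacterial outer-membrane glycolipid, is sensed through Tlr4. The study looked for genes that govern the inflammatory activation of microglia, with 3 Vehicle and 3 LPS libraries of poly(A)-selected RNA. The labels give no dose and no time. They do not say that the libraries of a group were grown apart, and the p-values then reflect no more than the variation among these 6 libraries, which may be technical.

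The mitochondrial ribosome translates the few messages of mitochondrial DNA, which encode subunits of the respiratory chain and of ATP synthase. Its RNAs come from mitochondrial DNA, but all of its proteins are encoded in the nucleus, made in the cytosol and imported. Part of them descend from proteins of the bacterial ribosome, and the others were added in the mitochondrial lineage. In macrophages and microglia, LPS is known to shift energy metabolism from respiration towards glycolysis.

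Library totals ran from 45969690 (Vehicle 3) to 59023474 (Vehicle 1) estimated counts. The treatment was visible in known LPS targets. The cytokine gene Tnf was at 91.3, 103 and 101 CPM (counts relative to the scaled library total) in Vehicle 1 to 3 and at 952, 1126 and 1025 CPM in LPS 1 to 3. The log2 fold changes of Il6, a cytokine, and Nos2, the inducible nitric oxide synthase, were 7.97 and 7.67. All 10 markers of microglia and macrophages had a mean above 1 CPM, with sums of 2180 to 2470 CPM in Vehicle and 1840 to 2320 CPM in LPS libraries. The summed markers of astrocytes, neurons, oligodendrocytes, endothelium, fibroblasts and T cells reached at most 10.6 CPM per list and library, and Cd3e and Cd8a were at 0. On the second principal component of log2 CPM the LPS libraries lay apart from each other, at 62.8, -23.3 and -66.3 for LPS 1 to 3. Values that depend on a library are given with and without it.

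With LPS, the mitochondrial ribosomal protein genes showed no common direction: 14 of the 78 changed, some up and some down. All 78 passed the filter on low counts. A gene was called where its adjusted p from edgeR's quasi-likelihood F test (Benjamini-Hochberg, over 16371 tested genes) was under 0.05. By this rule 6 members were higher and 8 were lower with LPS. The remaining 64 did not pass. The called members made up 17.9% of the set, 7.69% higher and 10.3% lower, and the same test called 23.6% of all tested genes, 12.7% higher and 10.9% lower. Among the 9217 genes whose mean level lay in the members' range of 5.71 to 178 CPM, 30.1% were called. The members' share was the lowest of these, but without LPS 3 it was 28.2%, against 26.4% of all genes then tested. The difference was not tested. The median log2 fold change (LPS minus Vehicle) was -0.02 for the members and -0.02 for all tested genes, with 37 members above 0 and 41 below. The libraries of the groups did not overlap in 33 members (42.3%), against 40.8% of all tested genes and 48.7% of genes in the same CPM range.

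Most members moved little. The log2 fold change lay within 0.5 of 0 in 68 members (87.2%), against 60.5% of all tested genes and 71.1% of genes in the same CPM range. The 95% interval of the fold change lay within 1.5-fold either way for 51 members, 49 of them not called, and within 2-fold for 72. For 6 members the interval did not bound the change at 2-fold. A called change of at least 2-fold was found in 2 members, Mrps21 and Mrpl18, and in 7.82% of all tested genes. In bulk RNA, a different number of cells of a kind and a different amount of RNA per cell cannot be told apart.

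In both subunits some genes rose and some fell. Of the 49 large subunit genes 4 were higher and 6 lower, with a median log2 fold change of -0.03 (interquartile range -0.20 to 0.20). Of the 29 small subunit genes 2 were higher and 2 lower, with a median of -0.02 (interquartile range -0.22 to 0.18). The calls made up 20.4% of the large and 13.8% of the small subunit genes, against 23.6% of all tested genes. The log2 fold change lay within 0.5 of 0 in 83.7% of the large and 93.1% of the small, against 60.5%. The groups did not overlap in 21 large (42.9%) and 12 small subunit genes (41.4%). Among all tested genes this was 40.8%, and among genes in the members' CPM range 48.7%. Genes are not replicates, so the difference between the subunits was not tested. The names do not match the place of every protein: Mrps18a and Mrps30 sit in the large subunit, and Mrps36, also known as Kgd4, is now counted with the oxoglutarate dehydrogenase complex. Assigned by place, the medians were 0.02 for 51 large and -0.03 for 26 small subunit genes.

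**Figure D1:**
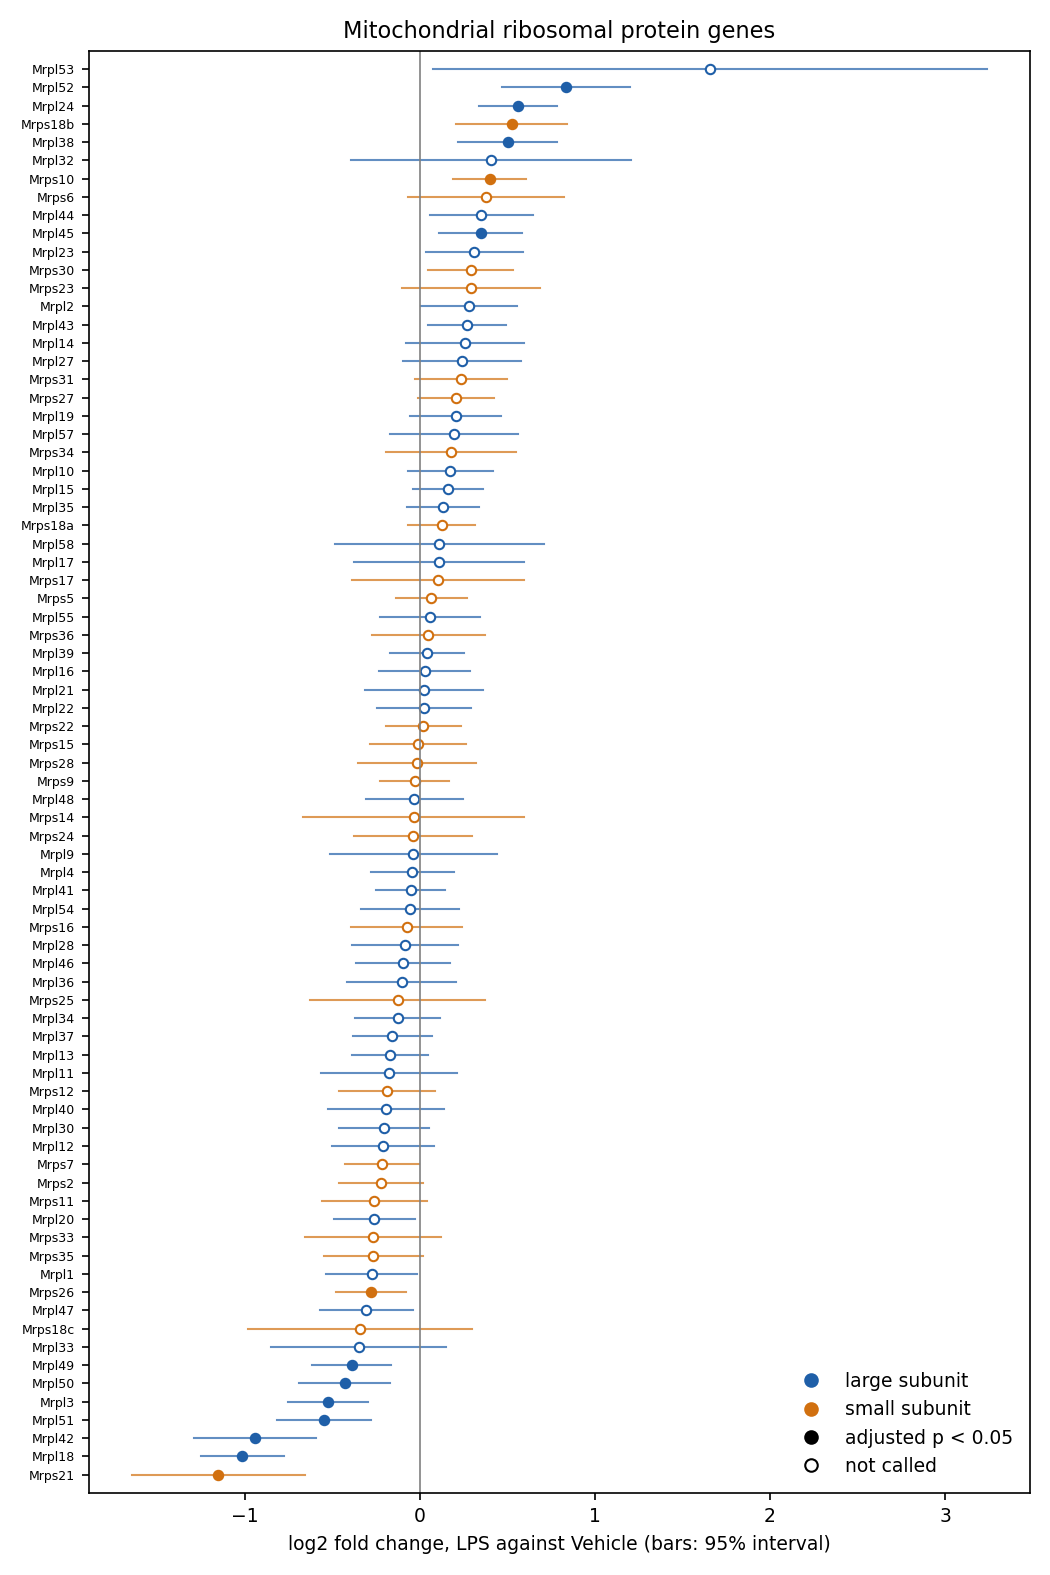
Log2 fold change (LPS against Vehicle, horizontal axis) of each of the 78 members, with its 95% interval as a bar, in order of size. Blue marks the large and orange the small subunit, and filled points are the 14 called members, with Mrps21 at -1.15 the lowest and Mrpl52 at 0.84 the highest called member. Mrpl53, at 1.66, has the widest interval and is not called.

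The largest fall was in the small subunit. Mrps21 (ENSMUSG00000054312), a small protein with a homologue in the bacterial ribosome, was at 65.7, 66.5 and 70.9 CPM in Vehicle and at 28.4, 21.6 and 41.6 CPM in LPS 1 to 3. Every LPS library lay below every Vehicle library, and LPS 3 was the least reduced. Means were 67.7 ± 2.80 CPM in Vehicle and 30.5 ± 10.2 CPM with LPS (SD, n = 3). The log2 fold change was -1.15 ± 0.21 (SE, as after every log2 fold change here), with an edgeR adjusted p = 0.00689. Mrps26 (ENSMUSG00000037740), a mitochondrion-specific protein, was the other small subunit gene that fell. It was at 83.2, 81.1 and 79.8 CPM in Vehicle and at 70.3, 63.9 and 67.1 CPM with LPS. Its groups did not overlap, but the change was the smallest of the 14, at -0.28 ± 0.09 (edgeR adjusted p = 0.0495). The call was lost whenever a library other than LPS 3 was left out (adjusted p up to 0.155), with no filter on low counts and with a replicate block.

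In the large subunit, 6 genes fell. Mrpl18 (ENSMUSG00000057388), a central protuberance protein whose bacterial homologue binds 5S ribosomal RNA, was at 70.5, 72.2 and 70.1 CPM in Vehicle and at 37.3, 36.6 and 31.5 CPM with LPS. The spread within each group was small, and the log2 fold change of -1.01 ± 0.10 had the lowest adjusted p of any member (edgeR, 0.000331). Mrpl42 (ENSMUSG00000062981), a mitochondrion-specific protein, was at 62.7, 72.8 and 77.3 CPM in Vehicle and at 33.2, 32.4 and 45.2 CPM with LPS. It fell by 0.94 ± 0.15 on the log2 scale (edgeR adjusted p = 0.00298), again with LPS 3 the least reduced. Mrpl3 (ENSMUSG00000032563), a core protein close to the peptidyl transferase centre, was at 97.3, 94.3 and 111 CPM in Vehicle and at 74.0, 69.6 and 66.6 CPM with LPS. Its log2 fold change was -0.53 ± 0.10 (edgeR adjusted p = 0.00645). Mrps21, Mrpl18, Mrpl42 and Mrpl3 kept their calls whichever library was left out.

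The other falls in the large subunit were of mitochondrion-specific proteins, and their calls depended on the libraries included. Mrpl51 (ENSMUSG00000030335) was at 70.5, 77.6 and 76.3 CPM in Vehicle and at 58.1, 51.0 and 44.4 CPM with LPS, which gave -0.55 ± 0.12 on the log2 scale (edgeR adjusted p = 0.0113, and 0.0542 without Vehicle 2). Mrpl50 (ENSMUSG00000044018) was at 34.5, 34.1 and 39.0 CPM in Vehicle and at 27.6, 24.9 and 27.4 CPM with LPS. Mrpl49 (ENSMUSG00000007338) was at 50.4, 48.5 and 45.5 CPM in Vehicle and at 36.0, 36.3 and 37.96 CPM with LPS. In both genes the groups did not overlap. The log2 fold changes were -0.43 ± 0.11 for Mrpl50 and -0.39 ± 0.10 for Mrpl49 (edgeR adjusted p = 0.0270 and 0.0223). The call of Mrpl50 was lost whenever a library other than LPS 3 was left out (adjusted p up to 0.0949), and that of Mrpl49 without LPS 1, LPS 2, Vehicle 1 or Vehicle 2 (up to 0.0916).

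Among the 4 large subunit genes that rose, Mrpl52 changed most. Mrpl52 (ENSMUSG00000010406), a mitochondrion-specific protein of the central protuberance, was at 26.6, 30.3 and 35.1 CPM in Vehicle and at 66.1, 49.8 and 48.0 CPM with LPS. LPS 1 was the highest library, and the log2 fold change was 0.84 ± 0.16 (edgeR adjusted p = 0.00688). Mrpl24 (ENSMUSG00000019710), which lies near the exit of the tunnel for the new protein, was at 90.7, 91.4 and 94.4 CPM in Vehicle and at 137, 149 and 121 CPM with LPS. The log2 fold change of Mrpl24 was 0.56 ± 0.10 (edgeR adjusted p = 0.00438). Both kept their calls whichever library was left out. Mrpl38 (ENSMUSG00000020775), a mitochondrion-specific protein of the central protuberance, was at 56.0, 48.3 and 66.5 CPM in Vehicle, and the 3 LPS libraries lay close together at 79.9, 80.2 and 81.6 CPM. It rose by 0.50 ± 0.12 (edgeR adjusted p = 0.0202), and the call was lost without LPS 1, LPS 2, Vehicle 1 or Vehicle 2 (up to 0.0754).

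Mrpl45 (ENSMUSG00000018882), which ties the ribosome to the inner membrane, was at 91.7, 79.4 and 83.3 CPM in Vehicle and at 101, 119 and 103 CPM with LPS. The groups did not overlap, and the log2 fold change was 0.35 ± 0.10 (edgeR adjusted p = 0.0421). The call was lost whenever a library other than LPS 3 was left out (adjusted p up to 0.152). It was also lost with no filter on low counts, with libraries scaled by total counts or upper quartile, and with a replicate block.

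In the small subunit, 2 genes rose. Mrps18b (ENSMUSG00000024436) is 1 of 3 relatives of the bacterial protein S18. It was at 89.4, 87.9 and 113 CPM in Vehicle and at 133, 122.8 and 162 CPM with LPS. The log2 fold change of Mrps18b was 0.52 ± 0.14 (edgeR adjusted p = 0.0274), and the call was lost without LPS 1, Vehicle 1 or Vehicle 2 (up to 0.115). Mrps10 (ENSMUSG00000034729), a homologue of bacterial S10, was at 100, 106 and 94.5 CPM in Vehicle and at 130.1, 124 and 141 CPM with LPS. Its groups did not overlap and it rose by 0.40 ± 0.09 (edgeR adjusted p = 0.0148), with the call lost without Vehicle 1 or Vehicle 3 (up to 0.0681). With total counts in place of the TMM scaling, Mrpl45, Mrps10 and Mrps18b were no longer called. Of the 78 members, 3 were then higher and 11 lower. Of all 16371 tested genes, 1650 were then higher and 2258 (13.8%) lower. Total counts also moved the share of higher genes among all changed genes from 53.9% to 42.2%.

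**Figure D2:**
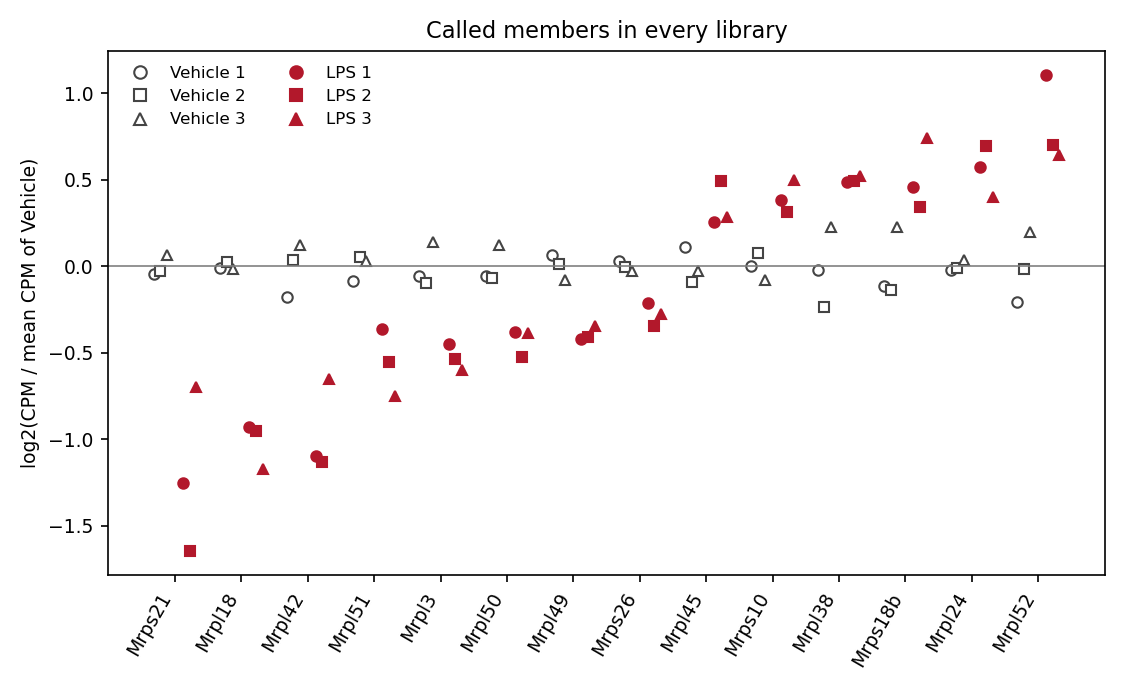
Level of each of the 14 called members in each library, as the log2 of its CPM over the mean CPM of the 3 Vehicle libraries (vertical axis). Open symbols are Vehicle and filled red symbols LPS, with the shape giving the library number. In every called member all LPS symbols lie on the same side of all Vehicle symbols, and LPS 3 is the least reduced in Mrps21 (41.6 CPM) and Mrpl42 (45.2 CPM).

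The sequences upstream of 3 called genes are shown, the larger fall and both rises among the 4 called genes whose call held whichever library was left out and whose window has a stretch free of annotated exons. The remaining gene, Mrpl3, is not printed. They come from RefSeq's promoter windows (build GRCm38.p6), 250 bases before to 50 after the start. The stretch of Mrpl42, which fell, is chr10:95501950-95502099 on the minus strand, 150 to 1 bases before the start. That of Mrpl52, which rose, is chr14:54426759-54426908 on the plus strand, 150 to 1 bases before the start. That of Mrpl24, which rose, is chr3:87919356-87919505 on the plus strand, 188 to 39 bases before the start. Capitals mark the letters AAGATGG and CTTCCGG, the latter being CCGGAAG read on the other strand.
Mrpl42: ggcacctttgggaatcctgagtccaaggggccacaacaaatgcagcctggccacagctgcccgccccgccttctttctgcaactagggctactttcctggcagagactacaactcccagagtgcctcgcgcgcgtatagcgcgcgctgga
Mrpl52: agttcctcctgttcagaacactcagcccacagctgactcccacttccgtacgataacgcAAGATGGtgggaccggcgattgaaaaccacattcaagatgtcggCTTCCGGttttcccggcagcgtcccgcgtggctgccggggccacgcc
Mrpl24: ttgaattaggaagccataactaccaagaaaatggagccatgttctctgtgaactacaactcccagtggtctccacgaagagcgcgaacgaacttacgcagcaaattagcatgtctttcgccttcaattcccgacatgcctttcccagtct

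Some short words were commoner in the members' windows than in all windows, but none was in most of them. Of the 78 members 69 matched a window, and 5 short words were searched on both strands in these and in all 27025 windows of 300 bases. CCGGAAG, a core of ETS-family sites such as those of Gabpa, was in 25 member windows (36.2%) and in 9.12% of all windows. AAGATGG, part of sites bound by Yy1, was in 13 (18.8%) against 6.48%. GCATGCG, part of Nrf1 sites, was in 8 (11.6%) against 3.64%. CACGTG, an E-box that Myc can bind, was in 5 (7.25%) against 7.24%, and the TATA-type word TATAAA in 4 (5.8%) against 14.2%. CCGGAAG was in 14 of 43 large subunit windows (32.6%) and in 11 of 26 small subunit windows (42.3%). It was in 2 of the 5 windows of higher genes, in 5 of the 8 of lower genes and in 18 of the 56 of genes not called. These counts describe letters in a window, with no test and no statement on binding. All members passed the filter on low counts, but the 27025 windows were not limited to tested genes. Nor were they matched for start regions shared with another gene. Whether the differences are particular to the members was therefore not tested.

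Among short lists of members by place, only that of the central protuberance held calls of both signs. Of 6 listed proteins of the central protuberance, where a mitochondrial tRNA takes the place of 5S RNA in mammals, Mrpl18 fell while Mrpl38 and Mrpl52 rose. Mrpl40, Mrpl46 and Mrpl48 were not called, with log2 fold changes of -0.20, -0.10 and -0.03. Of 6 proteins around the polypeptide exit, Mrpl24 and Mrpl45 rose and 4 were not called. Mrpl47, Mrpl22, Mrpl17 and Mrpl23 had log2 fold changes of -0.31, 0.02, 0.11 and 0.31. Of the L2, L3 and L4 core proteins Mrpl3 fell, and Mrpl4 and Mrpl2, at -0.04 and 0.28, were not called. Of the S18 relatives Mrps18b rose, and Mrps18a at 0.13 ± 0.08 and Mrps18c at -0.34 ± 0.27 were not called. Differences among these genes were not tested. None of the 5 proteins of the stalk and its base was called.

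By origin, 48 members have bacterial homologues, of which 3 were higher and 3 lower (12.5% called, median log2 fold change -0.03). The 29 mitochondrion-specific members included 3 higher and 5 lower (27.6% called, median 0.02). Both shares are descriptions beside the 23.6% of all tested genes called, and Mrps36 is in neither class.

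The stalk held the most variable member. Mrpl53 (ENSMUSG00000030037), a protein near the stalk base, was at 2.41, 2.63 and 3.32 CPM in Vehicle and at 8.09, 15.4 and 2.38 CPM in LPS 1 to 3. LPS 3 lay below every Vehicle library while LPS 1 and LPS 2 lay above them, so the groups overlapped. Its log2 fold change of 1.66 ± 0.66 did not pass (edgeR adjusted p = 0.125, 95% interval 0.07 to 3.24), and among the alternatives it was called without LPS 3 and by DESeq2's Wald test. All of its exon bases are shared with other annotated genes, Ccdc142os and Gm42688, so reads of Mrpl53 and of these genes may not be separable.

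Levels per length, as TPM (CPM divided by the length of the principal transcript and rescaled to a common total), ranged widely in Vehicle. In the large subunit Mrpl12 and Mrpl30 were highest, at 293 ± 36.8 and 280.3 ± 19.3 TPM (SD, n = 3). These levels did not differ beyond their spread. Mrpl12, the counterpart of the bacterial stalk protein L7/L12, was at 188, 167 and 216 CPM in Vehicle and at 158, 147 and 189 CPM with LPS, and its groups overlapped. Mrpl30 was at 86.8, 89.7 and 98.7 CPM in Vehicle and at 89.6, 79.2 and 69.8 CPM with LPS. Neither was called (log2 fold changes -0.21 ± 0.13 and -0.21 ± 0.11, edgeR adjusted p = 0.278 and 0.234). Mrpl53 and Mrpl58 were lowest, at 8.11 ± 1.38 and 12.2 ± 2.29 TPM. Mrpl58, a peptidyl-tRNA hydrolase built into the ribosome, was at 15.1, 13.0 and 18.9 CPM in Vehicle and at 22.02, 17.7 and 10.8 CPM with LPS (0.11 ± 0.26, not called).

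Among the genes named Mrps, Mrps21 and Mrps18a had the highest Vehicle levels, 307 ± 13.0 and 229.8 ± 7.34 TPM (SD, n = 3). Mrps18a sits in the large subunit, and the next Mrps gene was Mrps10 at 199 ± 11.97 TPM. Mrps21 was therefore both the most abundant Mrps message per length in Vehicle and the Mrps member with the largest change. Mrps18a was at 101, 96.4 and 104 CPM in Vehicle and at 108, 115 and 106 CPM with LPS, and was not called (log2 fold change 0.13 ± 0.08, edgeR adjusted p = 0.326). Mrps35 and Mrps16 were lowest, at 17.6 ± 1.21 and 19.96 ± 1.63 TPM. Mrps35 was at 34.6, 35.05 and 39.1 CPM in Vehicle and at 33.8, 29.5 and 27.0 CPM with LPS, a log2 fold change of -0.27 ± 0.12 that was not called. Mrps16 was at 23.4, 27.2 and 25.6 CPM in Vehicle and at 25.4, 26.3 and 20.3 CPM with LPS, with overlapping groups. The median member level in Vehicle was 81.9 TPM in the large and 67.5 TPM in the small subunit.

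The members whose names and places differ showed no called change. Mrps30, in the large subunit despite its name, was at 74.4, 73.1 and 80.5 CPM in Vehicle and at 99.0, 98.4 and 81.4 CPM with LPS. The groups did not overlap, but the log2 fold change of 0.29 ± 0.11 did not pass (edgeR adjusted p = 0.0839), except without LPS 3. Mrps36 was at 27.8, 28.9 and 37.5 CPM in Vehicle and at 30.5, 32.3 and 34.3 CPM with LPS, a log2 fold change of 0.05 ± 0.14.

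Of the 5 ribosome proteins with other symbols, only Ptcd3 passed the test with all libraries. Ptcd3, a pentatricopeptide protein of the small subunit, was at 91.2, 102 and 80.0 CPM in Vehicle and at 65.7, 56.4 and 65.6 CPM with LPS. Its log2 fold change was -0.54 ± 0.12 (edgeR adjusted p = 0.0119, and 0.0569 without Vehicle 2). Dap3, which binds GTP in the small subunit, was at 0.04 ± 0.14, Chchd1 at -0.11 ± 0.17 and Gadd45gip1 at 0.14 ± 0.09. Aurkaip1 was the most spread, with 74.4, 52.9 and 35.01 CPM in Vehicle and 72.0, 48.2 and 35.9 CPM with LPS. Its libraries of the same number lay closer together than libraries of the same group.

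Summed over genes, neither subunit separated the groups. The large subunit genes summed to 3013, 2883 and 3114 CPM in Vehicle 1 to 3 and to 3111, 3045 and 2810 CPM in LPS 1 to 3. The small subunit genes summed to 1672, 1649 and 1706 CPM in Vehicle and to 1713, 1693 and 1671 CPM with LPS. The groups overlapped in both sums. The ratio of small to large was 0.558 ± 0.0123 in Vehicle and 0.567 ± 0.0241 with LPS (SD, n = 3), a difference smaller than either spread. LPS 3 had both the lowest large subunit sum and the highest ratio of all libraries, 0.595.

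**Figure D3:**
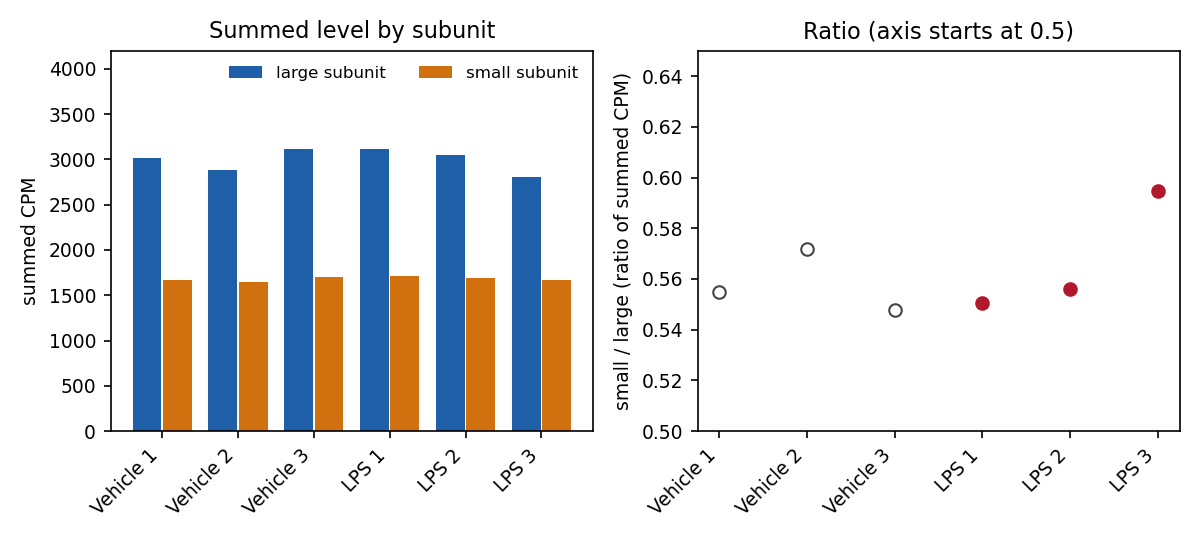
Left, summed CPM of the 49 large (blue) and 29 small (orange) subunit genes in each library, on an axis from 0. Right, the ratio of the small to the large sum, open for Vehicle and filled for LPS, on an axis from 0.5. The ratios run from 0.548 (Vehicle 3) to 0.595 (LPS 3), and the groups overlap.

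LPS 3 held the lowest levels of many members among the LPS libraries. Of the 78 members 47 (60.3%) were lowest there, against 37.7% of all tested genes and 41.9% of genes in the same CPM range. The median difference in log2 CPM from the Vehicle mean was 0.08 in LPS 1, 0.02 in LPS 2 and -0.14 in LPS 3 for the members, and -0.01, 0.02 and 0.01 for all tested genes. Both subunits showed it, with LPS 3 at -0.15 for the large and -0.12 for the small subunit. Mrps14 was at 43.9 and 51.3 CPM in LPS 1 and LPS 2 and at 23.9 CPM in LPS 3. Mrps18c, Mrpl33 and Mrps6 were at 35.6, 27.0 and 16.4 CPM, at 34.2, 33.6 and 19.0 CPM, and at 57.5, 61.6 and 35.6 CPM in LPS 1 to 3. Mrpl32, a large subunit protein processed by the mitochondrial m-AAA protease, went the other way, with 42.2, 36.4 and 72.6 CPM in LPS 1 to 3. It had also been highest in Vehicle 3, at 52.6 CPM against 30.4 and 31.3 CPM, and was not called (log2 fold change 0.41 ± 0.33), except with a replicate block. These genes were chosen after their values were seen.

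Without LPS 3, 22 members (28.2%) were called, 13 higher and 9 lower, against 26.4% of all genes then tested. All 14 calls made with every library were among them. The 8 added were Mrpl2, Mrpl19, Mrpl23, Mrpl44, Mrpl53, Mrps2, Mrps6 and Mrps30. Of the large subunit genes 9 were then higher and 6 lower, and of the small subunit genes 4 were higher and 3 lower. Why LPS 3 differed was not tested.

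**Figure D4:**
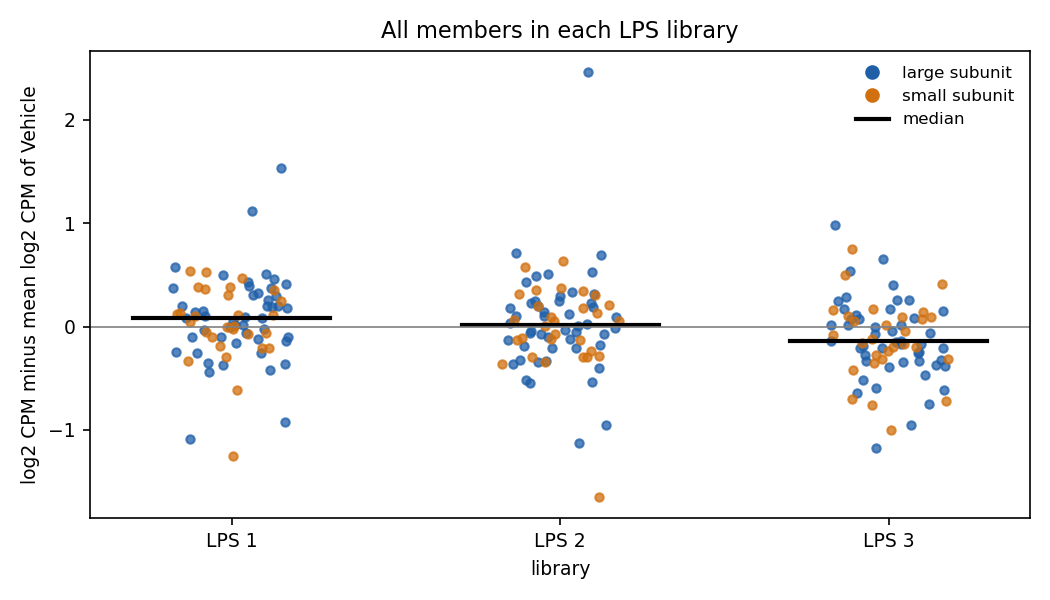
Log2 CPM of each member in LPS 1, LPS 2 and LPS 3 minus its mean log2 CPM over the Vehicle libraries (vertical axis), blue for the large and orange for the small subunit, with the median of the 78 members as a black line. The medians are 0.08, 0.02 and -0.14.

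Many members share a start region with another gene. In the GENCODE M21 annotation 33 of the 78 members (42.3%) start within 1000 bases of a gene that runs the opposite way, against 16.7% of 12596 tested coding genes. Mrps11 and Mrpl46, a small and a large subunit gene, are such a pair, and neither was called. Of 32 partners tested, 10 were called (31.2%), 3 higher (9.38%) and 7 lower (21.9%), against 23.6%, 12.7% and 10.9% of all tested genes. The sign was that of the member in 19. The pair Mrps11 and Mrpl46 entered the 32 and the 19 from each side. Mrpl51 and its partner Ncapd2, a condensin subunit, were the only pair with both called, and both fell (-0.55 and -0.71 ± 0.08, the latter with edgeR adjusted p = 0.000522). Mrpl18 fell beside Tcp1, a chaperonin subunit at -0.17 that was not called. Fau, Zfp189 and Ppp1r10, the partners of Mrpl49, Mrpl50 and Mrps18b, were at 0.40, 0.28 and -0.12 and were not called. Each of these 3 values had the opposite sign to that of its member.

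Counting without strand cannot part genes that overlap, and the kit is not stated to mark strand. Exons of 22 members overlapped other annotated genes over more than 10% of their bases, 3 of them called. Mrpl18 shared 10.6% with Tcp1, Mrpl24 shared 38.1% with Rrnad1 and Mrps18b shared 46.2% with Gm16279. The values of these 3 genes are uncertain, and the share of bases does not give the share of counts affected.

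Genes of the cytosolic ribosome, which translates nuclear messages, lay mostly above 0. Of 77 tested genes for cytosolic ribosomal proteins 12 rose, none fell and 65 did not pass, with a median log2 fold change of 0.30 and 74 values above 0. The 12 made up 15.6%, against 12.7% of all tested genes called higher. By medians of log2 CPM from the Vehicle mean, the 77 tested genes stood at 0.43 and 0.49 in LPS 1 and LPS 2 and at -0.08 in LPS 3. Without LPS 3, 59 were higher, against 2450 of all 17169 genes then tested. With any other library left out 2 to 7 were higher, against 1291 to 1549 of 17036 to 17136 genes then tested. With libraries scaled by total counts, 7 were higher and 1 lower, against 1650 and 2258 of all 16371 tested genes. Rplp1, a stalk protein, rose by 0.44 ± 0.07 (edgeR adjusted p = 0.00378), and Rps10, a small subunit protein, by 1.11 ± 0.17 (edgeR adjusted p = 0.00348). Rps20, the cytosolic counterpart of Mrps10, rose by 0.43 ± 0.13 (edgeR adjusted p = 0.0451), and its call was lost whenever a library other than LPS 3 was left out (up to 0.171). Cytosolic ribosomal protein genes have many near-identical pseudogenes, so their values are uncertain. The difference between the ribosomes has no test, since genes are not replicates.

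Genes of 5 related lists also moved both ways. The lists hold factors that build and serve the mitochondrial ribosome, genes for transcription and RNA processing in mitochondria, and regulators of nuclear genes. Of their 102 tested genes, 8 were higher (7.84%) and 13 lower (12.7%) with LPS. Among all tested genes 12.7% were higher and 10.9% lower. Of 28 assembly factors and GTPases, 3 rose and 3 fell (21.4% called, against 23.6% of all tested genes, median log2 fold change 0.12). Nsun4, a methyltransferase of the small subunit RNA, was at 0.99 ± 0.29 and Ngrn, needed for the large subunit RNA, at 0.75 ± 0.15. Mettl15, another methyltransferase of the small subunit RNA, was at 0.65 ± 0.19 and Mettl17, an assembly factor of the small subunit, at -0.56 ± 0.14 (edgeR adjusted p = 0.0472, 0.00756, 0.0387 and 0.0223 in this order). The call of Ngrn held whichever library was left out. That of Nsun4 held only with Vehicle 3 left out, that of Mettl15 only with LPS 3 left out, and that of Mettl17 was lost without LPS 1, LPS 2, Vehicle 1 or Vehicle 2. Their highest adjusted p with a library left out were 0.148, 0.128 and 0.0793. Across left-out libraries, 1 to 5 genes of this list were higher and 0 to 3 lower.

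Of 20 mitochondrial translation factors and message-binding proteins, 1 rose and 3 fell (20.0% called, against 23.6% of all tested genes, median -0.01). Gfm1, the elongation factor that moves the ribosome along the message, and Guf1, a related GTPase, fell by 0.44 ± 0.08 and 0.62 ± 0.11 (edgeR adjusted p = 0.00439 and 0.00541). Lrpprc, which stabilises mitochondrial messages, fell by 0.44 ± 0.11 (0.0175, edgeR adjusted). Mrrf, the ribosome recycling factor, rose by 0.44 ± 0.11 (0.0182, edgeR adjusted). Gfm1 and Guf1 kept their calls whichever library was left out. Lrpprc lost the call without LPS 2, Vehicle 1 or Vehicle 2, and Mrrf kept it only with LPS 3 left out (adjusted p up to 0.0762 and 0.078). Between 0 and 2 genes of this list were higher and 2 to 4 lower when a library was left out.

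Of 17 mitochondrial aminoacyl-tRNA synthetases, which load tRNAs with amino acids, 1 rose and 3 fell (median 0.01). The share called was 23.5%, against 23.6% of all tested genes. The cysteine enzyme Cars2 fell by 1.19 ± 0.17 and the methionine enzyme Mars2 by 0.75 ± 0.12 (edgeR adjusted p = 0.00147 and 0.00277). The leucine enzyme Lars2 fell by 0.58 ± 0.15 (edgeR adjusted p = 0.0249, not called without LPS 1 or Vehicle 1, up to 0.0802), and the phenylalanine enzyme Fars2 rose by 0.84 ± 0.14 (0.00293, edgeR adjusted). Of 26 genes for transcription and RNA processing in mitochondria, none rose and 2 fell (7.69% called, median -0.06). With a library left out, 0 to 3 rose (3 without LPS 3) and 0 to 2 fell. The replicate number as a block gave 2 higher and 1 lower, the stricter filter 1 and 2, and DESeq2's Wald test 2 and 3. The 2 that fell were Tfam, the main packaging and transcription factor of mitochondrial DNA, and Polg, its polymerase. Their log2 fold changes were -0.48 ± 0.14 and -0.37 ± 0.11 (edgeR adjusted p = 0.0382 and 0.0393). With a library left out, Tfam kept the call only without LPS 1 and Polg only without LPS 3 (adjusted p up to 0.126 and 0.122).

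Of 11 tested regulators of nuclear genes for mitochondria, 3 rose and 2 fell (median 0.14). The share called was 45.5%, against 23.6% of all tested genes. Myc, which can bind the E-box named above, rose by 2.13 ± 0.28, and Pprc1, a coactivator related to Ppargc1a, by 0.89 ± 0.12 (edgeR adjusted p = 0.00106 and 0.00147). Tfeb, a regulator of lysosomal genes, fell by 0.75 ± 0.16 and Gabpb2, a partner of the ETS factor Gabpa, by 0.61 ± 0.09 (0.0104 and 0.00165). These 4 calls held whichever library was left out. Whether any of these regulators bears on the members was not tested.

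**Figure D5:**
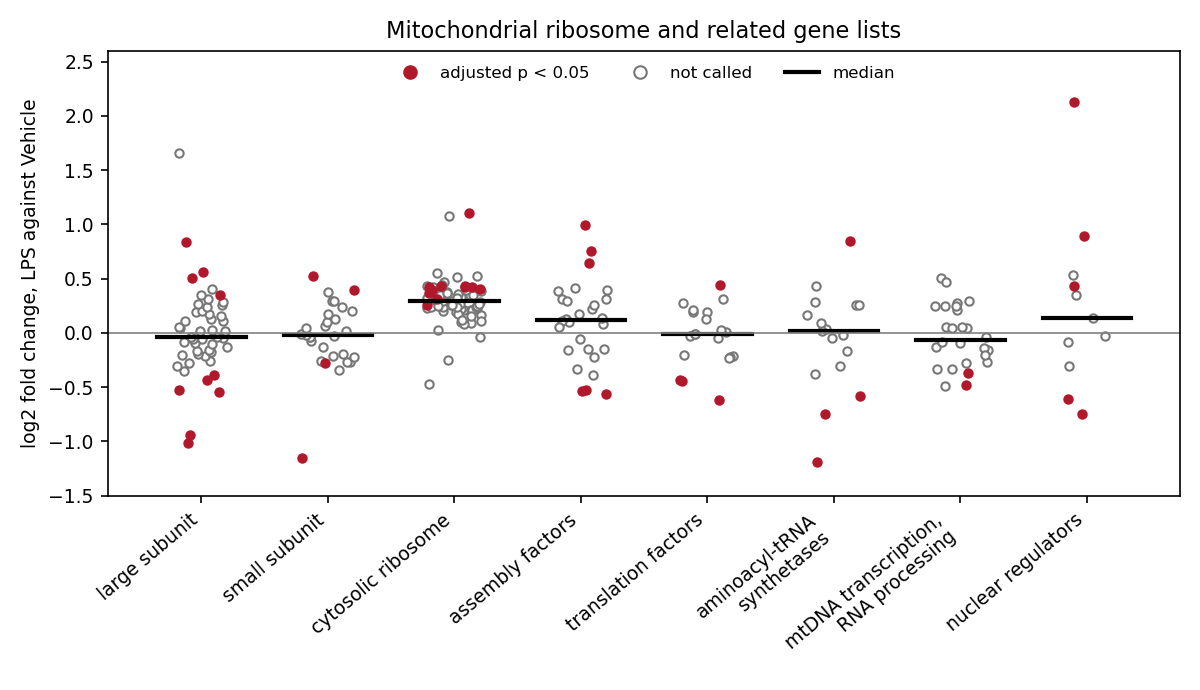
Log2 fold change (LPS against Vehicle, vertical axis) of every tested gene of the subunits, of the cytosolic ribosome and of 5 related lists, with called genes filled red and each list's median as a black line. The medians of the large and small subunit (-0.03 and -0.02) lie near 0, and that of the cytosolic ribosomal proteins is 0.30.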

How the data were processed

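The deposited values are expected counts, estimated by the authors per gene for each of the 6 libraries, and the files do not record how. Poly(A) RNA was selected with oligo(dT) beads, made into libraries with the NEBNext Ultra kit and sequenced on an Illumina NovaSeq, per the labels' protocols. Bowtie2 2.2.8, HISAT2, StringTie 1.3.1 and DESeq2 are named without role or order, per the submitters' processing notes. The build, annotation and counting settings: not given in the sources used here. All sample columns were mapped by name (0 unmapped). Low values were spaced by 3.87 to 3.91 counts, so a count is not a read.

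Names, lengths and neighbours came from GENCODE M21. The test used edgeR 4.0.16 (R 4.3.3): filterByExpr (minimum count 10, total 15), TMM scaling and the robust quasi-likelihood F test, two-sided, LPS against Vehicle, adjusted over all tested genes. The SE is the log2 fold change over the square root of F. CPM are TMM-scaled, with a prior count of 2 on the log2 scale. TPM used the median length of the principal transcripts. Figures were drawn with matplotlib 3.10.9. The script was tested on simulated data.

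The members and lists were chosen with earlier results of these data known. Named were all called members, the 2 of highest and the 2 of lowest level per length in each subunit, members and ribosome proteins with unusual names, and up to 4 called genes of each related list. Alternatives were other scalings and filters, DESeq2 1.42.0, limma 3.58.1 (voom), edgeR's earlier test, a replicate block, division by the spacing, and each library left out. Counts of members and lists are descriptions, with no set test.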

Additional observations from a re-analysis of the deposited data

How the results depend on the processing

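The members split 6 higher and 8 lower with DESeq2's size factors, limma voom, edgeR's earlier test, the stricter filter and values divided by the spacing. The split was 7 and 8 with DESeq2's Wald test, 5 and 7 with no filter, 5 and 8 with upper-quartile scaling, and 3 and 11 with total counts. The median of all tested genes was -0.10 with total counts. Leaving out a library gave 2 to 13 members higher (2 without Vehicle 1, 3 without LPS 1 or Vehicle 2, 13 without LPS 3) and 4 to 9 lower (4 without Vehicle 2, 5 without LPS 1, LPS 2 or Vehicle 1). Of the 14 called members, 7 to 14 kept the call, the fewest without Vehicle 1 or Vehicle 2. All called genes numbered 2344 (without Vehicle 2) to 4535 (without LPS 3), and those of the related lists 12 (without Vehicle 2) to 30, with 13 without LPS 2 or Vehicle 1. Subunit medians ran from -0.07 to 0.01 (large) and from -0.04 to 0.02 (small) with a library left out, and were -0.12 and -0.11 with total counts. The cause of these shifts was not tested. Under the 16 alternatives run for single genes, calls were kept by Mrps21, Mrpl18, Mrpl42, Mrpl3, Mrpl24 and Mrpl52. Of 368 values for 23 named ribosome genes, 329 kept their side of the threshold, 38 lost the call and 1 gained it (Mrps30 without LPS 3). No called value changed sign, and 11 values of genes that were not called did (Aurkaip1, Chchd1, Dap3, Mrpl58 and Mrps36).

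With the replicate number as a block, 6 members were higher and 7 lower, Mrps26 and Mrpl45 were no longer called, Mrpl32 was, and 3817 of all tested genes were called. Libraries of the same number correlated at 0.073, 0.045 and 0.058 in their deviations from the group means, so the numbers were not taken to pair the libraries. Each library correlated best with its own number, which is a hint from the data and not from the design.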

Other observations

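The 5 rows for Mrp pseudogenes, left out of the set, were low. Mrps36-ps1 and Mrps36-ps2 stayed under 1 CPM in every library, and Mrps36-ps3 was at 0. Mrpl48-ps was at 2.596, 2.81 and 3.38 CPM in Vehicle and at 2.12, 2.63 and 3.22 CPM with LPS, and Mrpl23-ps1 at 0.893, 1.17 and 1.18 CPM in Vehicle and at 0.621, 0.531 and 0.534 CPM with LPS. Pseudogene copies listed under other kinds of name were not examined.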
